A study of Mus musculus with 18 samples.

Results

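The genes described here are the clock-output transcription factors Dbp, Tef, Hlf, Nfil3, Bhlhe40 and Bhlhe41, 6 genes chosen by name and looked up in a deposited count table of 17672 genes. Of the 6, 5 had a row. Bhlhe41 was not analysed here. Nfil3, Tef, Bhlhe40 and Dbp had enough reads to be tested, and Hlf, with 1 to 11 counts per library, did not pass the filter on low counts. The main finding was that 3 h of β-adrenergic stimulation changed Nfil3, Bhlhe40 and Tef in ABHD5 knockdown cells and in cells with ABHD5 restored: Nfil3 and Bhlhe40 were higher and Tef was lower. The ABHD5 ligand SR-3420 gave no change in these genes that passed the main test against DMSO, although Bhlhe40 with doxycycline passed under some other settings given with it.

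Dbp, Tef and Hlf form the PAR-bZIP family, activators that bind a DNA element called the D-box. Nfil3, also known as E4BP4, is a related basic leucine zipper protein that binds the same element as a repressor, so the balance of Nfil3 against the PAR-bZIP factors is commonly described as setting the output of D-box genes. Bhlhe40 and Bhlhe41, also known as DEC1 and DEC2, are basic helix-loop-helix repressors that act at E-boxes, the element through which CLOCK and ARNTL drive the clock and much of Dbp and Tef transcription.

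All 18 libraries came from an immortalised mouse brown adipocyte line, differentiated in culture, that stably carried an shRNA against Abhd5, the co-activator of the lipase ATGL, and a doxycycline-inducible, mCherry-tagged, shRNA-resistant ABHD5 construct. Cells without doxycycline (no Dox) carry the genotype label ABHD5 KD. Cells given 1 µg/ml doxycycline (Dox) to restore ABHD5 are labelled WT. The drug was given for 24 h by the study's account of this experiment, and for 24 to 48 h by the labels. Each was stimulated for 3 h with DMSO as vehicle, 10 nM isoproterenol (ISO, a β-adrenergic agonist) or 20 µM SR-3420 (a synthetic ligand that frees ABHD5 from perilipin), which gave 6 groups of 3 replicates. As all groups carry the shRNA and the construct and no library had doxycycline without the construct, the drug and the re-expression of ABHD5 cannot be told apart. The study's methods speak of independent experiments, and the line is a single engineered one.

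The table held between 689910 and 1956565 counts per library. The study's methods name counting over genes, but the counted length in the table did not exceed the annotated intron bases for any of the 5 members, at 98.4% of them for Nfil3, 97.1% for Hlf, 80.9% for Tef, 57.4% for Dbp and 55.0% for Bhlhe40. For Nfil3, Hlf and Tef the values were therefore read as mostly intron reads, which would follow unspliced RNA. This reading rests on lengths alone and was not tested. For Dbp, with 1911 bases counted, 1630 exon bases and 3327 intron bases, and for Bhlhe40, with 1751 counted, 3113 exon and 3184 intron bases, the length does not tell exons from introns. Values are given as CPM, counts scaled to a common library size with TMM factors. In DMSO, Abhd5 itself stood at 47.2 to 55.8 CPM without Dox and at 484 to 656 CPM with Dox, with no overlap. Without Dox it was higher under ISO, at 130 to 173 CPM, a 2.84-fold rise (adjusted p = 3.34e-07), so Abhd5 reads were present in these cells. With no library free of the shRNA, the depth of the knockdown cannot be read from these counts. The counts do not separate the construct from the endogenous gene, and whether the construct holds intron sequence was not given in the sources used here. The SR-3420 with Dox replicate 1 library stood apart, with a TMM factor of 0.768 and 35.6% of its counts in its 10 highest genes, against 16.3% to 26.5% in the other libraries. Of the adipocyte markers, 9 had a row, with summed levels from 1264 to 1513 CPM in DMSO without Dox up to 2827 to 3355 CPM in ISO with Dox, and the brown adipocyte gene Dio2 was at 0 in all 18 libraries. The bases counted for Dio2 were not examined, so this does not show that its RNA was absent.

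The starts of Tef and Nfil3 are shown because these genes carried the clearest changes in opposite directions. The letters are the 250 bases before the start in RefSeq, build GRCm38.p6, whereas the deposited positions given with each gene further on are in mm9. Of the 5 members with a row, 4 matched an entry. The first Tef start, with the same span to the gene end as the deposited row, lies at chr15:81802423-81802672 on the plus strand, and the second at chr15:81811164-81811413 on the plus strand. The Nfil3 stretch lies at chr13:52981040-52981289 and is read on the minus strand. Capitals mark an E-box (CACGTG) in Tef and the short form of the cAMP response element (short CRE, TGACG, here as its complement CGTCA) in Nfil3.
Tef start 1: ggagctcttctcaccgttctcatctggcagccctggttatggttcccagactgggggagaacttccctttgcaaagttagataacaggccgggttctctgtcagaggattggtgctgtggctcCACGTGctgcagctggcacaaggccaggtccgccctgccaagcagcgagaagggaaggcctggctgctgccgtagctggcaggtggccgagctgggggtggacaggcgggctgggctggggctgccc
Tef start 2: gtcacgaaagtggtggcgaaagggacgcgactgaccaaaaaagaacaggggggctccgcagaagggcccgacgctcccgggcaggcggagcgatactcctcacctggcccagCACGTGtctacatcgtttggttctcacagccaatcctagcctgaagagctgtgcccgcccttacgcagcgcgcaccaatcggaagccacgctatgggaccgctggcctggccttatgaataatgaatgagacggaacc
Nfil3 start: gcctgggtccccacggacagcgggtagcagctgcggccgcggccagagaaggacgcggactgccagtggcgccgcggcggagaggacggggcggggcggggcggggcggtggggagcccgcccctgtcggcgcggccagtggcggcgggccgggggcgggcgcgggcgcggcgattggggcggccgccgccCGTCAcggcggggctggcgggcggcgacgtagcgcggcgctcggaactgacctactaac
Both strands were searched for the E-box CACGTG, the D-box TTANGTAA, the full CRE TGACGTCA and the short CRE TGACG, which lies within the full one. Both Tef starts held an E-box, at 127 to 122 bases before the start in start 1 and at 138 to 133 bases in start 2, against 6.02% of 32851 mouse promoters of that length. The short CRE of Nfil3 lay at 59 to 55 bases before the start, a match that 17.8% of promoters have. The stretch of Hlf held a full CRE at 9 to 2 bases, found in 1.55% of promoters, and no motif was found in that of Dbp. None of the members' stretches matched the D-box letters, which 2.06% of promoters hold. These are matches of letters in a short window and not binding sites.

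Per kilobase of counted length, Tef had the highest value of the members in unstimulated knockdown cells, at 28.2 ± 1.51 CPM per kb (SD, n = 3). Dbp followed at 10.2 ± 3.26 and Bhlhe40 at 8.24 ± 1.43 CPM per kb, and their libraries overlapped. The repressor Nfil3 stood at 3.86 ± 0.220 CPM per kb and Hlf at 0.0826 ± 0.00624 CPM per kb. As the counted bases of Dbp and Bhlhe40 may be exonic and those of the others were read as intronic, this order is one of values in the table and not of RNA abundance. Under ISO without Dox the order differed: Bhlhe40 was at 26.3 ± 4.98 and Nfil3 at 26.0 ± 3.71 CPM per kb, while Tef was at 14.7 ± 3.26 CPM per kb.

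**Figure D1:**
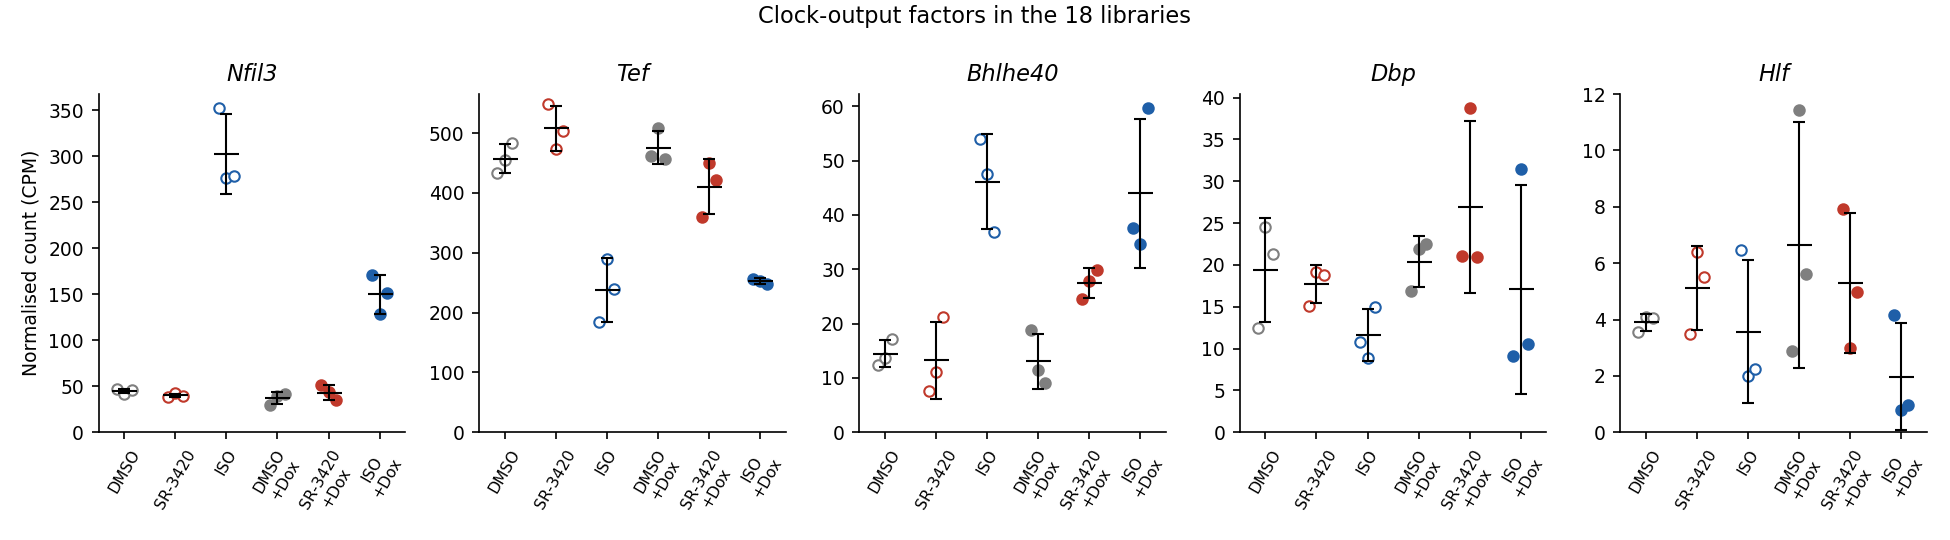
Normalised counts (CPM, each panel from 0 on its own linear axis) of 5 members in the 18 libraries, with open points for cells without Dox, filled points for cells with Dox, and black bars for the mean and SD of 3 replicates. The ISO libraries lie above all others for Nfil3 and Bhlhe40 and below all others for Tef, whereas the groups overlap for Dbp and Hlf.

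Nfil3 (NM_017373, chr13:53062578-53076408, minus strand, mm9) has 1 intron, and its counted length was 11651 bases. In cells without Dox, its level was 47.2, 42.2 and 45.7 CPM in DMSO and 352, 277 and 278 CPM under ISO. In cells with Dox it was 29.4, 39.6 and 41.6 CPM in DMSO and 171, 128 and 151 CPM under ISO. Every ISO library lay far above every DMSO library, and the ISO libraries with Dox lay below all ISO libraries without Dox. ISO against DMSO gave a log2 fold change of 2.74 ± 0.165 (SE), a 6.66-fold increase, without Dox (adjusted p = 3.9e-13), and of 2.07 ± 0.171, a 4.21-fold increase, with Dox (adjusted p = 1.21e-10; edgeR quasi-likelihood test with Benjamini-Hochberg adjustment over 10178 genes, as for all adjusted p-values here). The rise of Nfil3 also passed in each fit that left out 1 library, with log2 fold changes of 2.62 to 2.80 without Dox and 1.88 to 2.21 with Dox.

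Bhlhe40 (NM_011498, chr6:108610623-108616919, plus strand, mm9) moved in the same direction at lower counts, from 8 to 62 reads per library. Its level in cells without Dox was 12.5, 13.6 and 17.2 CPM in DMSO and 54.0, 47.6 and 36.8 CPM under ISO. In cells with Dox it was 18.8, 11.5 and 8.99 CPM in DMSO and 37.5, 34.7 and 59.7 CPM under ISO. No ISO library overlapped a DMSO library in either setting. The log2 fold change of Bhlhe40 was 1.65 ± 0.317, a 3.14-fold increase, without Dox (adjusted p = 0.000244) and 1.60 ± 0.298, a 3.03-fold increase, with Dox (adjusted p = 0.000125). The gene overlaps 0610040F04Rik on the other strand, and since the strand setting of the counting is not stated, reads of the pair cannot be told apart.

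Tef (NM_153484, chr15:81633103-81657293, plus strand, mm9), a PAR-bZIP activator, moved the other way. Without Dox its level was 434, 456 and 483 CPM in DMSO and 184, 289 and 240 CPM under ISO. With Dox it was 462, 508 and 457 CPM in DMSO and 257, 254 and 248 CPM under ISO. All 6 ISO libraries lay below all DMSO libraries. Tef fell by 0.94 ± 0.142 on the log2 scale without Dox, to a level 1.92-fold lower (adjusted p = 1.04e-05), and fell by 0.91 ± 0.140 with Dox, to a level 1.88-fold lower (adjusted p = 9.57e-06). With 170 to 960 reads per library, Tef had the highest counts of the members in all libraries but 2 of the ISO libraries without Dox, where Nfil3 had more.

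Dbp (NM_016974, chr7:52960617-52965573, plus strand, mm9), the best known rhythmic output of the clock, did not pass under ISO. It had 9 to 40 reads per library. Its level without Dox was 12.5, 24.5 and 21.3 CPM in DMSO and 10.8, 8.92 and 15.0 CPM under ISO, so the groups overlapped, with a log2 difference of -0.67 (95% interval -1.51 to 0.18, adjusted p = 0.241). With Dox it was 16.8, 21.9 and 22.5 CPM in DMSO and 9.17, 31.5 and 10.6 CPM under ISO. The ISO with Dox replicate 2 library was above all DMSO libraries and the other ISO libraries were below them, and the log2 difference was -0.18 (95% interval -0.91 to 0.56, adjusted p = 0.748). Without that library the difference was -0.97 and its adjusted p was 0.0551. The intervals of Dbp hold changes as large as that of Tef, and reads of Sphk2, which overlaps Dbp on the other strand, may be counted with it.

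Of the 4 tested members, 3 passed under ISO without Dox, where 28% of all tested genes did (14.5% higher and 13.5% lower). With Dox again 3 passed, against 32.5% of all tested genes (16.4% higher and 16.1% lower). Where a log2 change of 1 or more in either direction was also required, Nfil3 and Bhlhe40 passed and Tef did not, against 10.9% of all tested genes without Dox and 13.1% with Dox. The endothelial marker list had a sum of 17.3 to 25.8 CPM in the ISO libraries and 6.80 to 17.2 CPM in the DMSO libraries, but 4 of its 5 genes were at 0 to 7 counts per library and only Tek, at 4 to 27 counts, had enough to be tested. Tek passed under ISO, with a log2 fold change of 1.25 without Dox (adjusted p = 0.016) and 1.13 with Dox (adjusted p = 0.0181). The 8 preadipocyte markers summed to 551 to 677 CPM under ISO and 698 to 927 CPM in DMSO without Dox, with no overlap, and to 509 to 782 CPM and 774 to 1177 CPM with Dox. Of the 5 tested, Ly6a was higher (3.29) and Pdgfrb lower (-1.20) without Dox, and Pdgfrb (-0.78) and Col1a1 (-0.51) were lower with Dox. The adipocyte marker sum was 1395 to 1735 CPM under ISO without Dox, overlapping its DMSO range, and with Dox it was above the 1593 to 1720 CPM of DMSO. Of 8 adipocyte markers tested, 3 were higher without Dox (Ucp1 at 7.27, Prdm16 at 1.76 and Pparg at 0.55 on the log2 scale) and 7 with Dox, and none was lower. The 7 macrophage markers summed to 6.0 to 22.1 CPM over all libraries. The part of these differences in the changes of the members was not tested.

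Hlf (NM_172563, chr11:90197849-90252231, minus strand, mm9) gave 4, 3 and 4 counts in DMSO and 6, 2 and 3 under ISO without Dox, and 6, 11 and 5 in DMSO and 5, 1 and 1 under ISO with Dox. These counts are near the 3 that a count of 0 allows, and all neighbouring groups overlapped. In a fit with no filter on low counts, the Hlf log2 difference of ISO against DMSO was -0.16 (95% interval -1.53 to 1.20) without Dox and -1.51 (95% interval -2.82 to -0.19, adjusted p = 0.0971) with Dox.

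SR-3420, a stimulus that acts through ABHD5 and not the receptor, was compared with DMSO. In knockdown cells its target is reduced by design, so this comparison does not show what lipolysis does to these genes. None of the 4 members passed there, where 0.766% of all tested genes did. Tef was at 548, 473 and 504 CPM under SR-3420, a log2 difference of 0.15 (95% interval -0.13 to 0.43). Nfil3 was at 38.9, 42.4 and 39.2 CPM, a log2 difference of -0.17 (95% interval -0.56 to 0.22), and the libraries overlapped those of DMSO. These intervals leave out changes of the size seen under ISO for Nfil3 and Tef. For Bhlhe40 the log2 difference was -0.18 (95% interval -0.93 to 0.57) and for Dbp -0.10 (95% interval -0.84 to 0.65), wider because of their lower counts. At an unadjusted p under 0.05, still none of the 4 passed, where 893 of the 10178 tested genes did. Limma-voom called none of them, and DESeq2 called neither Nfil3 nor Tef and gave no adjusted p for Bhlhe40 and Dbp.

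In cells with Dox, where 9.9% of all tested genes passed (6.53% higher and 3.37% lower), again none of the 4 members did. Bhlhe40 came nearest. It was at 24.6, 27.8 and 30.0 CPM under SR-3420, above each of the DMSO libraries at 18.8, 11.5 and 8.99 CPM. The log2 difference was 0.93 ± 0.323 (95% interval 0.27 to 1.59), with an unadjusted p of 0.00709 and an adjusted p of 0.0633. The call depended on the DMSO with Dox replicate 1 library and on the settings of the fit. Without that library the Bhlhe40 log2 fold change was 1.41 and passed (adjusted p = 0.0323), and over the 6 fits that each left out 1 library the adjusted p ran up to 0.204. It also passed with no filter on low counts (0.92, adjusted p = 0.0243), with the replicate number as a block (0.90, adjusted p = 0.0345) and in a fit of these groups alone (0.94, adjusted p = 0.0498).

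Tef under SR-3420 with Dox was at 360, 450 and 421 CPM, just below the DMSO libraries with Dox, with a log2 difference of -0.21 (95% interval -0.49 to 0.07, adjusted p = 0.388). The lowest of these was the replicate 1 library that stood apart, and without it the difference was -0.12. Nfil3 was at 51.0, 43.7 and 35.0 CPM, overlapping DMSO, with a log2 difference of 0.29 (95% interval -0.12 to 0.69). Dbp was at 21.1, 38.8 and 21.0 CPM, with a log2 difference of 0.44 (95% interval -0.27 to 1.14).

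**Figure D2:**
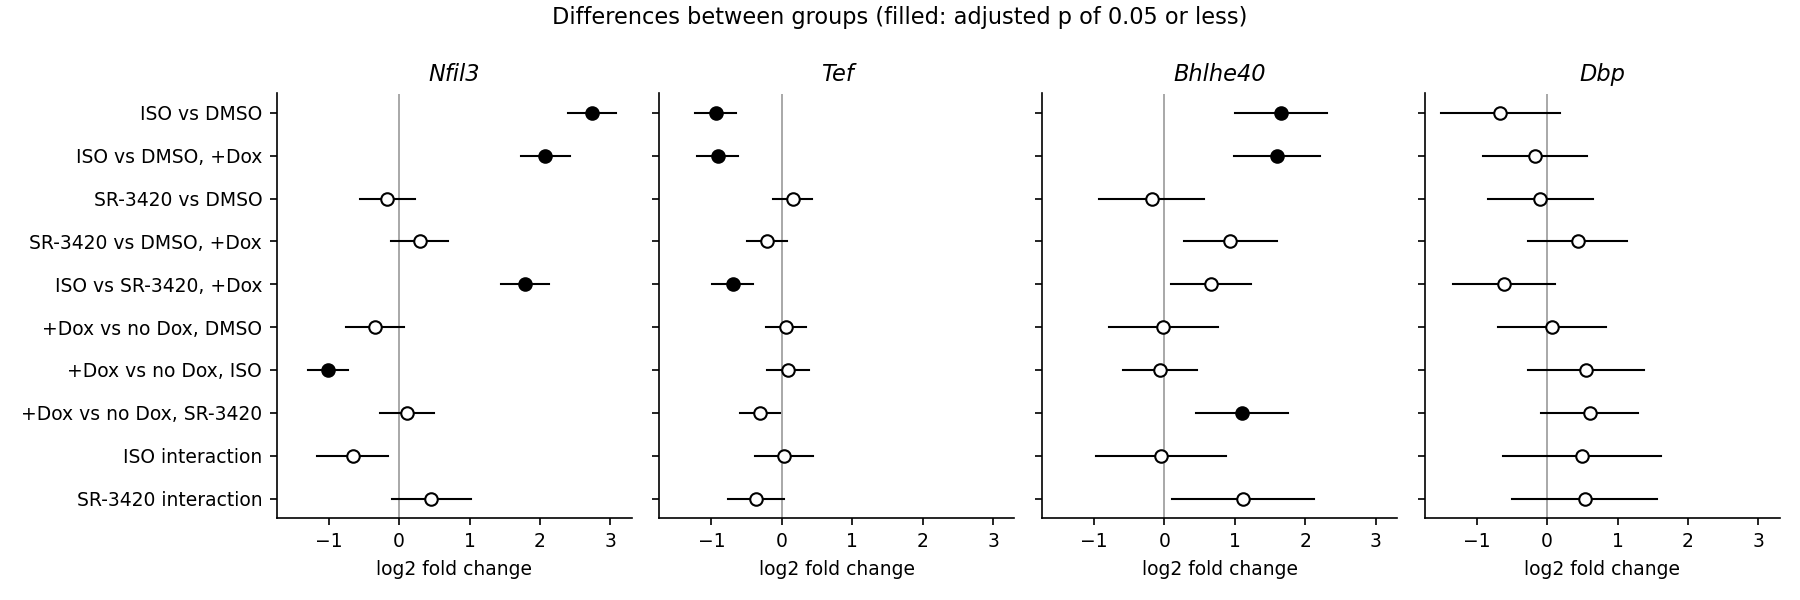
Log2 fold changes (x axis) with 95% intervals for the 4 tested members in 10 comparisons (rows), filled where the adjusted p was 0.05 or less. For Nfil3, Bhlhe40 and Tef both comparisons of ISO with DMSO are filled, while both comparisons of SR-3420 with DMSO are open for all 4 genes.

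ISO was also compared directly with SR-3420 in cells with Dox, a difference to which the DMSO libraries add only through the shared estimate of spread. Here 2 of the 4 members passed, against 19.8% of all tested genes (10.4% higher and 9.43% lower). Nfil3 was 3.45-fold higher under ISO, a log2 fold change of 1.79 ± 0.169 (adjusted p = 4.85e-09), and Tef was lower by a log2 fold change of -0.70 ± 0.141 (adjusted p = 0.000615), with no overlap of the libraries for either gene. With that log2 limit of 1, Nfil3 alone of the members passed, against 6.85% of all tested genes. Bhlhe40 was higher by 0.66 ± 0.277 on the log2 scale and did not pass (adjusted p = 0.0893), although its libraries did not overlap and it passed with no filter on low counts (0.69, adjusted p = 0.0391). Dbp differed by -0.61 (95% interval -1.33 to 0.11, adjusted p = 0.23). Leaving out the ISO with Dox replicate 2 library, which held the high Dbp value, gave -1.41 for Dbp (adjusted p = 0.00776) and 0.84 for Bhlhe40 (adjusted p = 0.0498), so that all 4 members passed in that fit. The 19.8% of all tested genes belongs to the main fit and not to that one.

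For doxycycline without stimulation none of the 4 members passed, where 1.18% of all tested genes passed. In DMSO the log2 difference with Dox against no Dox was 0.06 (95% interval -0.23 to 0.34) for Tef and -0.35 (95% interval -0.76 to 0.06, adjusted p = 0.598) for Nfil3. For Bhlhe40 it was -0.01 (95% interval -0.78 to 0.76), and for Dbp 0.07 (95% interval -0.69 to 0.83). At an unadjusted p under 0.05, none of the 4 passed in this comparison either, where 1000 of the 10178 tested genes did. DESeq2 and limma-voom called none of the 4.

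The comparisons of Dox with no Dox under each stimulus were added after the values had been seen. Under ISO, 1 member passed, against 12.7% of all tested genes: Nfil3 was 2.01-fold lower with Dox, at 128 to 171 CPM against 277 to 352 CPM, a log2 fold change of -1.01 ± 0.140 (adjusted p = 6.46e-06). It passed in all 6 fits that left out 1 library, with values from -1.11 to -0.88. Under ISO the log2 difference was 0.09 (95% interval -0.21 to 0.38) for Tef and -0.07 (95% interval -0.59 to 0.46) for Bhlhe40. These differences include what Dox did without stimulation. Whether the response to ISO itself differed with Dox is tested by the interaction, in which no member passed, against 2.18% of all tested genes: for Nfil3 it was -0.66 (95% interval -1.16 to -0.16), with an unadjusted p of 0.0114 and an adjusted p of 0.171. For Tef the interaction was 0.03 (95% interval -0.38 to 0.44) and for Bhlhe40 -0.05 (95% interval -0.97 to 0.87).

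Under SR-3420, 1 member passed, against 11.5% of all tested genes: Bhlhe40 was higher with Dox, at 24.6, 27.8 and 30.0 CPM against 7.55, 11.0 and 21.2 CPM, a log2 fold change of 1.10 ± 0.318 (adjusted p = 0.0211). The libraries did not overlap, but the call rested on single libraries. It was lost without replicate 1 or 2 of SR-3420 without Dox (0.80 and 1.00, adjusted p = 0.15 and 0.0782) and without replicate 2 or 3 of SR-3420 with Dox (1.10 and 1.04, adjusted p = 0.051 and 0.0738). It was also lost when library totals were used with no TMM factors (0.88, adjusted p = 0.0593). Tef was lower with Dox under SR-3420 by a log2 difference of -0.31 (95% interval -0.59 to -0.03), with no overlap of the libraries, and did not pass (adjusted p = 0.152), but did with library totals alone (-0.51, adjusted p = 0.0372) and in the fit with a replicate block (-0.32, adjusted p = 0.0388). The interaction of SR-3420 with Dox for Bhlhe40 was 1.12 (95% interval 0.11 to 2.12, unadjusted p = 0.0307, adjusted p = 0.35), and no member passed that test, where 0.757% of all tested genes did.

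The levels of Nfil3 and Tef, the repressor and the activator of D-box genes, were also set against each other within each library, as a description with no test. The ratio of Nfil3 to Tef, each per kilobase of counted length, was 0.151, 0.129 and 0.132 in DMSO without Dox and 2.67, 1.33 and 1.61 under ISO without Dox. With Dox it was 0.0884, 0.108 and 0.127 in DMSO and 0.926, 0.704 and 0.847 under ISO. Under SR-3420 it was 0.0988 to 0.125 without Dox and 0.115 to 0.197 with Dox. Per kilobase, Nfil3 was thus above Tef only in the ISO libraries without Dox, below Tef but near it in those with Dox, and far below it in all DMSO and SR-3420 libraries. This order depends on the counted lengths. In CPM, Nfil3 was below Tef in the ISO without Dox replicate 2 library, at 277 against 289. Under ISO with Dox it was at 128 to 171 against 248 to 257 CPM.

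**Figure D3:**
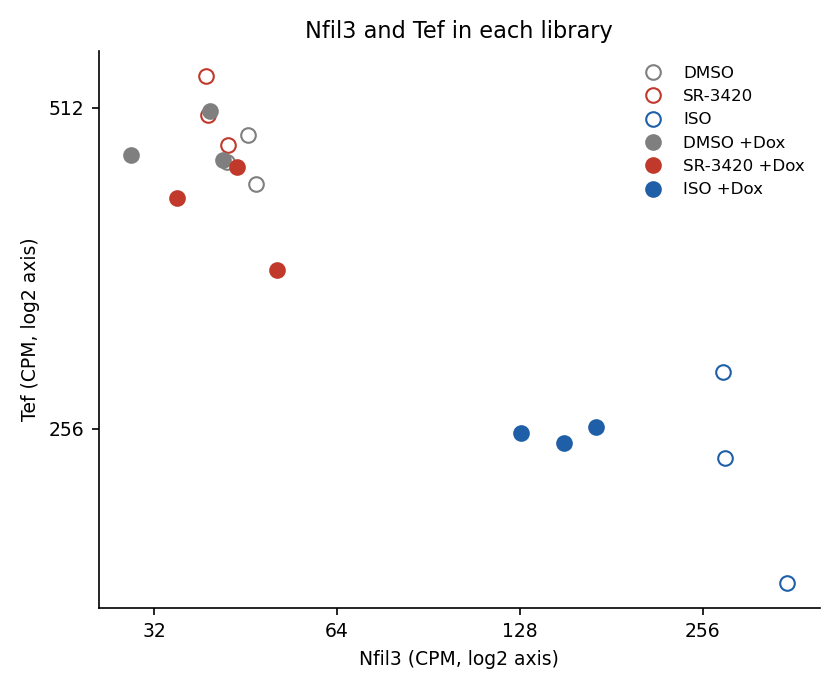
Nfil3 (x axis) against Tef (y axis) in each of the 18 libraries, both in CPM on log2 axes, with open points for no Dox and filled points for Dox. The 6 ISO libraries lie at the lower right, apart from the 12 DMSO and SR-3420 libraries at the upper left, and the ISO libraries with Dox lie to the left of those without.

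Across the 18 libraries, which share the treatment groups, Pearson's r of log2 CPM was -0.93 between Tef and Nfil3, -0.85 between Tef and Bhlhe40 and 0.77 between Nfil3 and Bhlhe40. For Dbp it was 0.49 with Tef, -0.59 with Nfil3 and -0.37 with Bhlhe40. No correlation was computed within a group, so these values do not tell differences between the treatment groups from a relation within a group. By the same measure, the genes most like Nfil3 among 6179 genes were Gfpt2 (0.98), the hexosamine pathway enzyme, Uap1 (0.98), which acts later in that pathway, and Cpne8 (0.98). Those most like Tef were Slc8b1 (0.97), a mitochondrial sodium-calcium exchanger, the clock gene Per3 (0.96) and Ctps2 (0.96), a CTP synthase. Those most like Bhlhe40 among 6180 genes were the ubiquitin ligase Cblb (0.93), Litaf (0.92) and Atp5f1 (0.91), a subunit of the ATP synthase. The likeness of Dbp to any gene was lower, with Garnl3 at 0.84 and the triglyceride synthesis enzyme Dgat2 and the epoxide hydrolase Ephx1 at 0.82.

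The members' responses were read beside 12 tested genes of the core clock. Under ISO without Dox, 2 of the 12 were higher and 1 lower, with a median log2 fold change of 0.09 against -0.01 over all genes tested. This share of 25% called was below the 28% of all tested genes. Per3, a period gene with D-boxes among its known elements, had a log2 fold change of -1.98 ± 0.157 (adjusted p = 1.04e-10), larger in size than that of Tef. Clock and Csnk1d were higher by 0.53 and 0.51. With Dox, 4 were higher and 2 lower, 50% of the 12 against 32.5% of all tested genes (median 0.25 against -0.02). Per3 at -1.98 again passed, with Cry2 at -0.94, and the genes that were higher were Arntl at 1.02, Npas2 at 1.10, Cry1 at 1.06 and Csnk1d at 0.41.

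None of the 12 clock genes passed for SR-3420 without Dox. With Dox, 3 were higher and 1 lower, 33.3% of the 12 against 9.9% of all tested genes: Arntl rose by 0.93 ± 0.167 (adjusted p = 0.000329), Npas2 by 1.22 ± 0.354 (adjusted p = 0.0238) and Cry1 by 0.87 ± 0.284 (adjusted p = 0.0485), and Per3 fell by 0.74 ± 0.144 (adjusted p = 0.000703). The comparisons of ISO and of SR-3420 with DMSO share the DMSO libraries. No clock gene passed either interaction test.

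**Figure D4:**
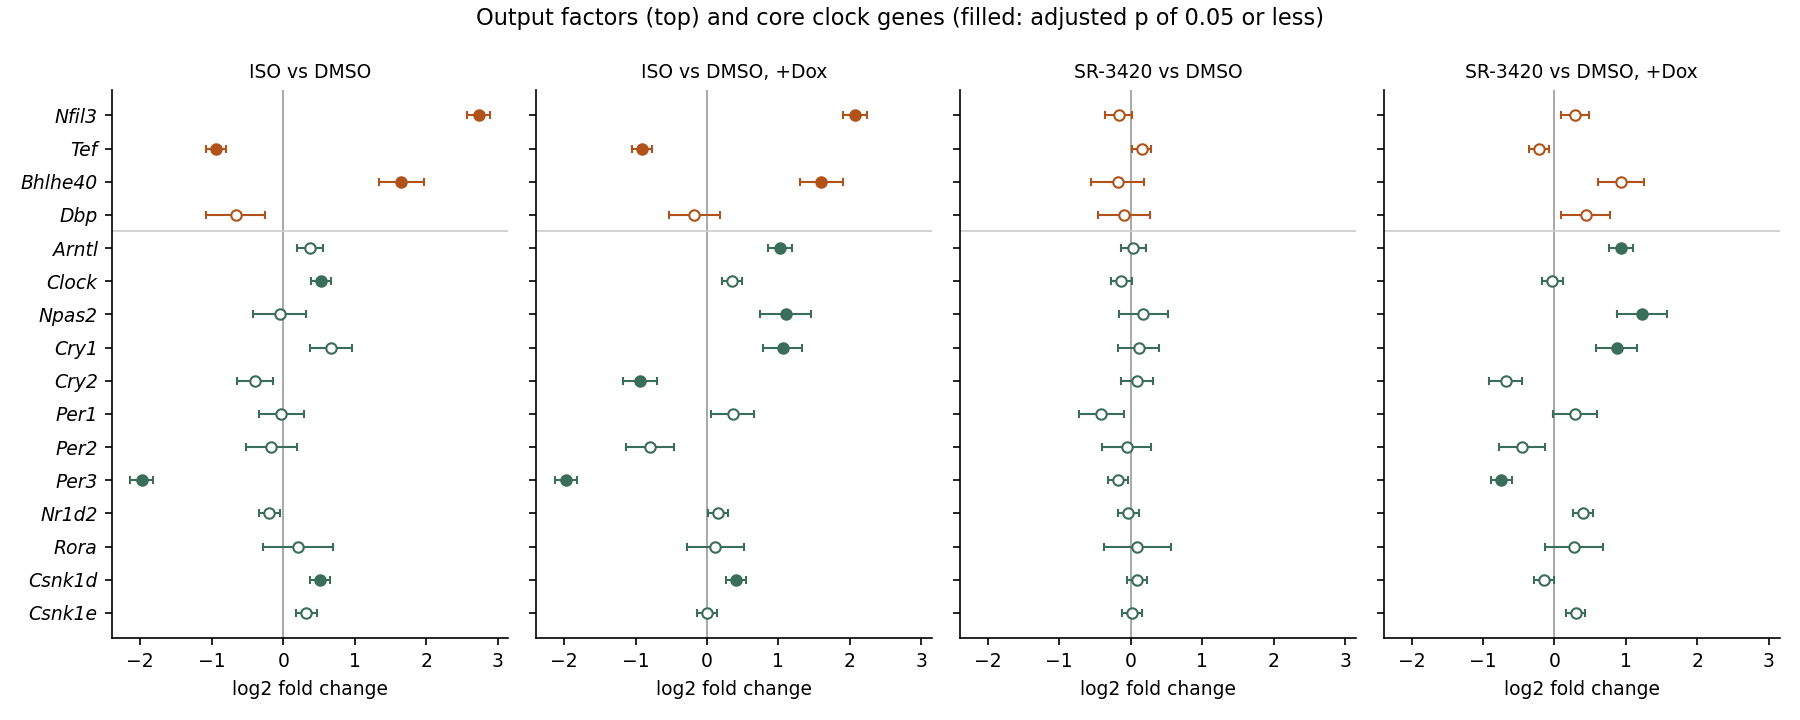
Log2 fold changes (x axis, bars are SE) of the 4 tested members (orange) and of 12 core clock genes (green) in the 4 comparisons of a stimulus with DMSO, filled where the adjusted p was 0.05 or less. Nfil3, Tef and Bhlhe40 are filled under ISO only, whereas Per3 is filled under ISO with and without Dox and under SR-3420 with Dox.

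Of 7 genes commonly described as D-box genes, 6 were tested, and 3 of them (Per1, Per2 and Per3) are also in the clock list. Whether Nfil3 or Tef acts on them in these cells was not tested. Under ISO 1 was higher and 1 lower both with and without Dox, a share of 33.3% beside 32.5% and 28% of all tested genes. Per3 was the lower one, and Alas1, the first enzyme of haem synthesis, was higher by 1.07 ± 0.137 without Dox (adjusted p = 7.66e-07) and by 1.22 ± 0.134 with Dox (adjusted p = 3.57e-08), the direction opposite to that of Tef. Under SR-3420 with Dox 1 was higher and 1 lower, 33.3% against 9.9% of all tested genes. Por, the reductase of cytochrome P450 enzymes, rose by 0.72 ± 0.119 (adjusted p = 0.000109) and Per3 fell. Por was also higher with Dox than without it in DMSO (0.49, adjusted p = 0.0399).

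Genes driven by cAMP, the second messenger of the β-adrenergic receptor, were read beside the members. The list was chosen with earlier results of these data known, so its shares are not an independent check of the stimulus. Of 11 tested, 8 were higher and 1 lower under ISO without Dox (81.8% called, against 28% of all tested genes), with a median log2 fold change of 1.59. With Dox 9 were higher and 2 lower (against 32.5% of all tested genes), with a median of 1.69. Crem, a cAMP-inducible repressor, had a log2 fold change of 1.46 ± 0.180 without Dox and 1.69 ± 0.182 with Dox, beside 2.74 ± 0.165 and 2.07 ± 0.171 for Nfil3. Nr4a3, a nuclear receptor, had 4.59 ± 0.648 and 5.75 ± 0.688. These differences between genes were not tested. The early response gene Egr1 fell by 1.93 without Dox and fell by 2.81 with Dox, and the phosphatase gene Dusp1 fell by 1.22 with Dox. Under SR-3420 none of the 11 passed without Dox, where 0.766% of all tested genes did, and Atf3 at 3.37, Sik1 at 1.41 and Ppargc1a at 1.14 were higher with Dox (27.3%, against 9.9% of all tested genes).

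Among other basic leucine zipper genes of the C/EBP type, 3 of 6 listed had a row and 1 was tested: Cebpg rose by 0.79 ± 0.181 under SR-3420 with Dox (adjusted p = 0.00373) and did not pass in the other 3 comparisons of a stimulus with DMSO. Among 7 other genes of the Hes and Hey group, which share the Orange domain with Bhlhe40, 2 were tested. Heyl fell by 1.19 ± 0.405 under ISO with Dox (adjusted p = 0.0244), and Hes1 did not pass in any of the 4.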

How the data were processed

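Total RNA was sequenced (TruSeq2) in 18 libraries. The authors aligned reads to mm9 with STAR 2.4.2a, kept 1 read per position per length with HOMER, counted with iRNA-seq, set in the methods to whole genes, and deposited raw counts per gene. For the 5 members with a row, the counted length was nearer to the intron than to the gene length. No strand setting was given in the sources used here. Groups were taken from the labels. Genes with low counts were left out with filterByExpr (10178 of 17672 kept), and 1 mean per group was fitted over all libraries with TMM factors and the quasi-likelihood test of edgeR 4.0.16 in R 4.3.3. Genes at an adjusted p of 0.05 or less, with Benjamini-Hochberg adjustment, were called. The fit was tested on simulated data. SE is the log2 fold change over the root of F, and p-values measure the spread between these replicates. Alternatives used other factors, filters and tools (DESeq2 1.42.0, limma 3.58.1), a replicate block, the groups of a comparison alone, a log2 limit of 1 and leaving out each library. Named genes were the members, Abhd5, the 3 genes most like each member (mean log2 CPM of at least 5), and genes of lists of clock, D-box, cAMP, C/EBP, Hes and Hey genes and cell type markers. Deviations from group means correlated at over 0.1 in all 3 same-numbered pairs of DMSO and SR-3420 with Dox (0.115 to 0.228). The main fit used no pairing, and the replicate numbers entered only the alternative with a replicate block. Members and lists were chosen with earlier results of these data known. Some listed clock genes are not reported here and were left out of the counts of their list.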

Additional observations from a re-analysis of the deposited data

How the results depend on the processing

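The passes of Nfil3 and Bhlhe40 under ISO held in every alternative in which they were tested, and that of Tef in all but the log2 limit of 1, which left 1 member called in ISO against SR-3420 with Dox (Tef -0.70). A minimum of 10 counts in every library left out Dbp and Bhlhe40, and with it 0 members passed for Dox under SR-3420. For SR-3420 against DMSO with Dox, 1 member (Bhlhe40) passed with no filter (0.92, adjusted p = 0.0243), with the replicate block (0.90) and in a fit of the groups of the comparison alone (0.94, adjusted p = 0.0498). These fits called 1080, 1568 and 897 genes in that order, against 1008 in the main fit. Bhlhe40 in ISO against SR-3420 with Dox passed with no filter (0.69) and with the replicate block. With the block, 2 members passed for Dox under SR-3420, Tef at -0.32 as well as Bhlhe40, while the genes called there rose from 1175 to 1834. The block changed no other call. Same-numbered libraries correlated at over 0.1 in 34 of 45 pairs (0.031 to 0.256). All 3 pairs did so for DMSO with SR-3420 in either Dox setting, DMSO with ISO in cells with Dox, and ISO with and without Dox. The main fit paired no libraries, although 18 of 18 correlated best with their own number, a hint from the data and not the design. With library totals alone, Tef passed for Dox under SR-3420 (-0.51, adjusted p = 0.0372).

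Leaving out 1 library at a time, the number of members called ran from 0 to 1 for SR-3420 against DMSO with Dox and for Dox under SR-3420, and from 2 to 4 for ISO against SR-3420 with Dox. Directions turned only for differences that did not pass. In DMSO, Dox against no Dox was -0.019 for Dbp and -0.036 for Tef with library totals, and 0.0012 and 0.028 for Bhlhe40 with no filter and with the replicate block. Nfil3 was at -0.13 for Dox under SR-3420 with library totals, and the ISO interaction of Tef was -0.038 with upper-quartile factors. With 1 library left out, Dox in DMSO ran from -0.21 to 0.24 for Dbp and -0.49 to 0.15 for Bhlhe40, SR-3420 without Dox from -0.37 to 0.081 and -0.63 to 0.11 for the same genes, ISO with Dox from -0.97 to 0.14 for Dbp, Dox under ISO from -0.24 to 0.87 for Dbp, -0.063 to 0.27 for Tef and -0.32 to 0.10 for Bhlhe40, Dox under SR-3420 from -0.024 to 0.24 for Nfil3, and the ISO interaction from -0.31 to 0.80 for Dbp, -0.12 to 0.21 for Tef and -0.31 to 0.42 for Bhlhe40. The cause of these changes was not tested. In CPM without length, Nfil3 ranked 2 among the members in DMSO without Dox in place of 4. Counts of 8 to 62 for Bhlhe40 and 9 to 40 for Dbp limit what can be seen in these genes.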
